A study of Mus musculus with 2 samples.

Results

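Transcripts of 10 liver enzymes that degrade serine, glycine and histidine were examined in primary mouse hepatocytes, out of 23284 genes in the deposited count tables. The genes were taken by symbol: Sds and Sdsl for serine, Gldc, Amt and Gcsh for glycine, Shmt1 between serine and glycine, and Hal, Uroc1, Amdhd1 and Ftcd for histidine. They were chosen with the difference between these libraries already known, so their ratios are given as a description and no test was made on them. The cells came from C57BL/6 mice and carried either lentivirus with an shRNA against JMJD3, the H3K27 demethylase encoded by Kdm6b, or control lentivirus. Each group was 1 sequencing library made from the pooled hepatocytes of 5 mice, so animals cannot be told apart. In both groups the virus was added 24 h after plating in M199 with 10% fetal bovine serum and left for 48 h. Both groups then received 10 µM forskolin, which raises cyclic AMP, with 5 mM glucose for 6 h as a culture model of fasting. The age and sex of the mice and the number of shRNA sequences are not given in the labels. With 1 library a group there is no spread between replicates, and every interval below is a 95% interval of counting error alone.

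In the liver, amino acids that are not used for protein are degraded, and in fasting their carbon feeds glucose synthesis. Serine dehydratase strips ammonia from serine and leaves pyruvate. The glycine cleavage system is a mitochondrial complex that splits glycine into carbon dioxide, ammonia and a methylene group carried by folate, and serine hydroxymethyltransferase moves the same kind of carbon unit between serine and glycine. Histidine is opened through urocanate to formiminoglutamate, whose formimino group is passed to folate while glutamate remains. Sds and Hal are known as genes of periportal hepatocytes, and Sds in rat liver is a classic target of glucagon and cyclic AMP.

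The JMJD3 shRNA library held 18334366 counts and the control library 11099562. Kdm6b, the targeted gene, stood at 33.0 CPM (counts scaled to library size, with TMM factors) in the JMJD3 shRNA library and 90.7 CPM in the control library, a ratio of 0.364 (0.329 to 0.403). Most hepatocyte markers were present in both libraries, with Alb at 794 CPM under JMJD3 shRNA and 1519 CPM under control shRNA. Apoa1 was low, at 2.93 CPM and 3.29 CPM in that order, and Apoa2 was under 1 CPM in both libraries. Of the 12 hepatocyte markers measured, 7 were lower and 1 was higher. The whole list of 13 genes summed to 9057 CPM under JMJD3 shRNA and 12808 CPM under control shRNA. The largest gap in CPM was in Fgb, at 846 CPM under JMJD3 shRNA and 3987 CPM under control shRNA. The lowest ratio was that of Cps1, at 3.87 CPM under JMJD3 shRNA and 223 CPM under control shRNA. Its log2 ratio was -5.85 (-6.21 to -5.51), where that of Fgb was -2.24. Trf, the most abundant, was at 4254 and 4282 CPM in that order, and Apob, the higher one, at 2229 and 1300 CPM. Otc, a urea cycle enzyme usually abundant in hepatocytes and named after its values were seen, had 3 counts under JMJD3 shRNA and 1 under control shRNA. Among markers of other liver cells, none of 5 macrophage markers measured passed the rule given below, with a sum over the list of 9 of 27.9 CPM under JMJD3 shRNA and 26.3 CPM under control shRNA and with Clec4f and Timd4 at 0 counts in both libraries. Stellate cell and fibroblast markers summed to 233 CPM under JMJD3 shRNA and 250.2 CPM under control shRNA, with 3 of 8 lower. Reln, 1 of these 3, was at 0.939 CPM under JMJD3 shRNA and was measured only through its level in the control library. Endothelial markers summed to 52.9 CPM under JMJD3 shRNA and 58.0 CPM under control shRNA, with 2 of 7 lower. Cholangiocyte markers summed to 8432 CPM under JMJD3 shRNA and 8099 CPM under control shRNA. Most of it was Spp1, at 8011 and 7795 CPM in that order, above Alb in both libraries. Of the cholangiocyte markers 3 of 6, Krt7, Krt19 and Sox9, were higher. Krt7 had a ratio of 3.13, on 126 counts under JMJD3 shRNA and 25 under control shRNA. Krt19 at 1.511 and Sox9 at 1.508 passed the 1.5-fold cut of the rule only narrowly. By the same rule 12.8% of all measured genes were lower and 15.3% were higher. The part of these shifts in the ratios below was not tested, and fewer hepatocytes or less of a transcript per cell cannot be told apart in such bulk RNA.

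A gene was counted as lower or higher when its ratio of JMJD3 shRNA over control shRNA lay 1.5-fold or more away from 1 with an interval that did not include 1 (the rule of size), and as measured when its mean over both libraries was at least 1 CPM. All 10 genes were measured. Of them, 7 were lower, 1 was higher and 2 were neither, where 12.8% of the 12607 measured genes in the whole data were lower and 15.3% were higher. The median log2 ratio of the 10 genes was -0.95, beside -0.004 for all measured genes. Nothing is read from this contrast of shares, because the genes were chosen on the same ratios. Hal and Uroc1 were under 1 CPM in the JMJD3 shRNA library and were counted as measured only through their level in the control library. By branch, all 4 histidine genes, 2 of 3 glycine cleavage genes and 1 of 2 serine dehydratase genes were lower, while Shmt1 was higher.

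**Figure D1:**
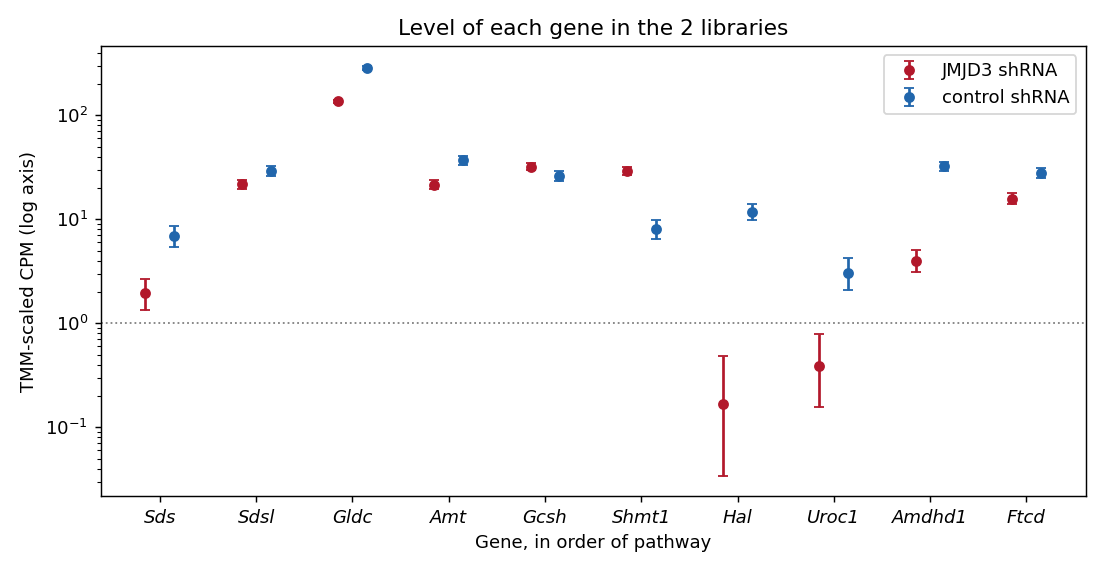
TMM-scaled CPM (log axis) of the 10 genes in the JMJD3 shRNA library (red, left of each pair) and the control library (blue), with 95% Poisson intervals of the counts. The dotted line marks 1 CPM, and Hal and Uroc1 lie below it in the JMJD3 shRNA library only.

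The steepest differences were in histidine breakdown, whose enzymes act in the order Hal, Uroc1, Amdhd1, Ftcd. Hal encodes histidase, the committed step that turns histidine into urocanate. Hal has 20 exons on chr10:92951513-92979488 (mm9, plus strand; all gene coordinates are mm9). It had 3 counts in the JMJD3 shRNA library against 132 counts in the control library, or 0.166 CPM against 11.7 CPM. Its log2 ratio was -6.15 (-8.44 to -4.57), and 15 of the measured genes had a lower one. The width of that interval comes from the 3 counts. Uroc1, urocanate hydratase, has 20 exons on chr6:90283283-90314542 (plus strand). It was the scarcest of the 10 genes in the control library, with 7 counts under JMJD3 shRNA and 34 counts under control shRNA, or 0.387 CPM and 3.03 CPM. Its log2 ratio was -2.97 (-4.39 to -1.77).

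Amdhd1 encodes imidazolonepropionase, which opens the ring left by urocanase. Amdhd1 has 9 exons on chr10:92986083-93002778 (minus strand). It had 72 counts (3.98 CPM) under JMJD3 shRNA and 363 counts (32.3 CPM) under control shRNA. The log2 ratio of Amdhd1 was -3.02 (-3.41 to -2.65), on more counts than Uroc1 and with a narrower interval. Ftcd, the formiminotransferase and cyclodeaminase that passes the formimino group to folate, has 14 exons on chr10:76038393-76053083 (plus strand). It had 285 counts (15.7 CPM) under JMJD3 shRNA and 314 counts (27.9 CPM) under control shRNA. At a log2 ratio of -0.83 (-1.06 to -0.59) Ftcd was the least changed of the 4, and its interval overlapped none of those of Hal, Uroc1 and Amdhd1. The intervals of Uroc1 and Amdhd1 overlapped each other, so their ratios could not be ordered by counting error.

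Hal and Amdhd1 are neighbours on chromosome 10, 6594 bp apart in mm9, on opposite strands and with their ends facing each other. The genes on their outer sides did not pass: Lta4h, 3871 bp from Hal, had a log2 ratio of -0.23 (-0.34 to -0.11), and Ccdc38, 598 bp from Amdhd1, was under 1 CPM in both libraries. Sds and Sdsl also lie side by side, 3783 bp apart on chromosome 5. Over the genes that flank the 10 enzymes and are not among them, 10 of 16 were measured, 1 of these was lower and none was higher. Over all measured genes 12.8% were lower and 15.3% were higher, so nothing is read from these counts. The median log2 ratio of the 10 measured flanking genes was -0.29. The lower one, Slc24a6, was the next gene beyond Sds that does not overlap it, at -0.74.

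The promoters of the 3 histidine genes with the lowest ratios and of Shmt1, the gene with the opposite ratio, are shown so that their sequences can be compared. They are RefSeq promoters on GRCm38.p6, 250 bases before to 50 bases after the start, printed 5′ to 3′ on the gene's own strand. They lie at chr10:93488518-93488817 (plus strand) for Hal, chr6:90333039-90333338 (plus strand) for Uroc1, chr10:93539984-93540283 (minus strand) for Amdhd1 and chr11:60811216-60811515 (minus strand) for Shmt1. Capitals mark the matches to the motifs named after them.
Hal: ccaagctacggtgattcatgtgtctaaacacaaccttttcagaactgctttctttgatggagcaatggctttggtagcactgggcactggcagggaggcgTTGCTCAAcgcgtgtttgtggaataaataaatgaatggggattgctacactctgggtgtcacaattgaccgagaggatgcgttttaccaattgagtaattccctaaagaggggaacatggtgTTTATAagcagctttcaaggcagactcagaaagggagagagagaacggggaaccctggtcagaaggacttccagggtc
Uroc1: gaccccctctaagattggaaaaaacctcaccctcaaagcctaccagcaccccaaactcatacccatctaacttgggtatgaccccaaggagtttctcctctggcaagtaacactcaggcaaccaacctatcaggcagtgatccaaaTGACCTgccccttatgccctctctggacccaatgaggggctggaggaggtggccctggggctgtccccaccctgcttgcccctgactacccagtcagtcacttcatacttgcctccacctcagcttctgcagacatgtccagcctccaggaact
Amdhd1: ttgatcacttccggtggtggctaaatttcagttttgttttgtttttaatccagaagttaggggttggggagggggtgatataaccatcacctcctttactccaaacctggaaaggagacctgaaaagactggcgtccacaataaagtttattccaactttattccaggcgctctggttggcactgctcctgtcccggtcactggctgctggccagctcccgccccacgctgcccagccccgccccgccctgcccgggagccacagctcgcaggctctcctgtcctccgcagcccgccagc
Shmt1: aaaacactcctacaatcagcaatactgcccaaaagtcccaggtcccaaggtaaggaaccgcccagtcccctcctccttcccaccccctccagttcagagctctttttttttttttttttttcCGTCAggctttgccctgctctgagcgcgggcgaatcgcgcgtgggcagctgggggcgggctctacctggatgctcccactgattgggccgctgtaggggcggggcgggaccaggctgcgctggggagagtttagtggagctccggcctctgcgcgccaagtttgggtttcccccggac

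A promoter was found for 8 of the 10 genes, all but Sds and Sdsl, and 8 motifs were searched on both strands. The full cyclic AMP response element TGACGTCA was in none of the 8 promoters and in 1.79% of all 32851 promoters. Its core TGACG, which every full element also contains, was in those of Shmt1, at 128 bases before the start, and Ftcd, and in 20.8% of all promoters. The C/EBP motif TTGCNNAA was in that of Hal alone, 150 bases before the start, and in 10.8% of all promoters. The nuclear receptor core AGGTCA was in those of Uroc1, 104 bases before the start, and Amt, and in 16.3% of all. A TATAAA box was in those of Hal, 28 bases before the start and on the opposite strand, and of Ftcd, and in 13.6% of all. The HNF4 core CAAAGT was in those of Gldc, Amt and Ftcd (14.4% of all). In Gldc this match lay after the start, and in Amt it overlapped the nuclear receptor match. The HNF1 core GTTAAT was in that of Ftcd (7.10% of all) and the glucocorticoid receptor core AGAACA in none (19.0% of all). None of the 8 motifs was in the Amdhd1 promoter. The Ftcd promoter held 4 of the motifs, more than any other of these promoters. A relation between motifs and log2 ratios was not tested. A match is only a string of letters within this window, and no binding was measured.

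**Figure D2:**
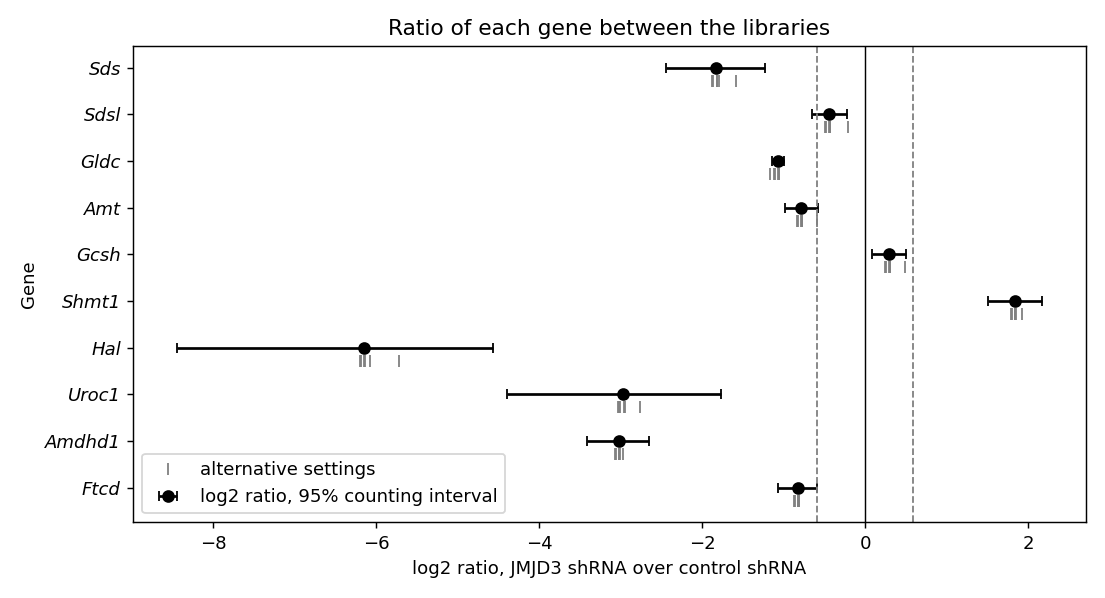
Log2 ratio of JMJD3 shRNA over control shRNA for each gene (black points) with exact conditional binomial 95% intervals; grey ticks show the same ratio under alternative settings, and dashed lines mark 1.5-fold. Hal, Uroc1 and Amdhd1 lie at -6.15, -2.97 and -3.02, Shmt1 at 1.83, and no alternative moved a gene across 0.

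Of the serine dehydratase transcripts, Sds was lower and Sdsl did not pass the rule of size. Sds, serine dehydratase, has 8 exons on chr5:120926556-120933914 (plus strand). It had 35 counts (1.93 CPM) in the JMJD3 shRNA library and 77 counts (6.85 CPM) in the control library, a log2 ratio of -1.83 (-2.45 to -1.23). Its relative Sdsl, serine dehydratase-like, has 8 exons on chr5:120908211-120922772 (minus strand). Sdsl had 392 counts (21.6 CPM) under JMJD3 shRNA and 330 counts (29.4 CPM) under control shRNA. Its log2 ratio of -0.44 (-0.65 to -0.22) excluded 0 but was short of 1.5-fold, and its interval did not overlap that of Sds. The last exon of Sds shares 13 bp with the last exon of Plbd2 on the opposite strand, and the counting did not use strand. Plbd2 was more abundant, at 128 CPM under JMJD3 shRNA and 184 CPM under control shRNA, with a log2 ratio of -0.52, and GENCODE transcripts of Plbd2 and Sds share 365 bp at 99.7% identity. Reads of these genes could not be fully told apart, so the Sds value is uncertain.

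In the glycine cleavage system the decarboxylase and the aminomethyltransferase were lower and the carrier protein was not. Gldc, the pyridoxal phosphate enzyme that removes the carboxyl group of glycine, has 25 exons on chr19:30172937-30249908 (minus strand). It had 2459 counts (136 CPM) under JMJD3 shRNA and 3199 counts (285 CPM) under control shRNA. Its log2 ratio of -1.07 (-1.14 to -0.99) had the narrowest interval of the 10 genes. Amt, which hands the methylene group to tetrahydrofolate, has 9 exons on chr9:108199253-108203928 (plus strand). Amt had 388 counts (21.4 CPM) under JMJD3 shRNA and 414 counts (36.8 CPM) under control shRNA, a log2 ratio of -0.78 (-0.99 to -0.58).

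Gcsh encodes the lipoate-bearing H protein that shuttles the intermediate between the other subunits. Gcsh has 5 exons on chr8:119505728-119517349 (minus strand). It had 581 counts (32.1 CPM) under JMJD3 shRNA and 294 counts (26.2 CPM) under control shRNA. Its log2 ratio was 0.29 (0.09 to 0.50), short of 1.5-fold and on the other side of 0 from those of Gldc and Amt. GENCODE lists 4 processed pseudogenes with over 90% identity to Gcsh across at least 200 bp, the longest match being 523 bp at 91.4%, so reads of Gcsh could be placed elsewhere or left uncounted. The shared subunit Dld, which also serves the pyruvate and other ketoacid dehydrogenases, was at 143 CPM and 163 CPM under JMJD3 shRNA and control shRNA, a log2 ratio of -0.19 (-0.28 to -0.10). Among Dld and 8 other measured genes that make or attach lipoate or build its iron-sulfur clusters, none was lower and 1 was higher. The higher one was Lipt1 at 0.59 (0.22 to 0.97), and the median was -0.23. Over all measured genes 12.8% were lower and 15.3% were higher.

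Shmt1 was the only one of the 10 genes that was higher. It encodes the cytosolic serine hydroxymethyltransferase. Shmt1 has 12 exons on chr11:60602399-60624767 (minus strand). It had 523 counts (28.9 CPM) in the JMJD3 shRNA library and 91 counts (8.10 CPM) in the control library. The ratio was 3.57 (2.85 to 4.51), or 1.83 (1.51 to 2.17) on the log2 scale, and 235 measured genes had a higher one. Its mitochondrial counterpart Shmt2 was higher too, at 134 CPM under JMJD3 shRNA and 84.5 CPM under control shRNA, a log2 ratio of 0.66 (0.55 to 0.77). The intervals of Shmt1 and Shmt2 did not overlap.

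**Figure D3:**
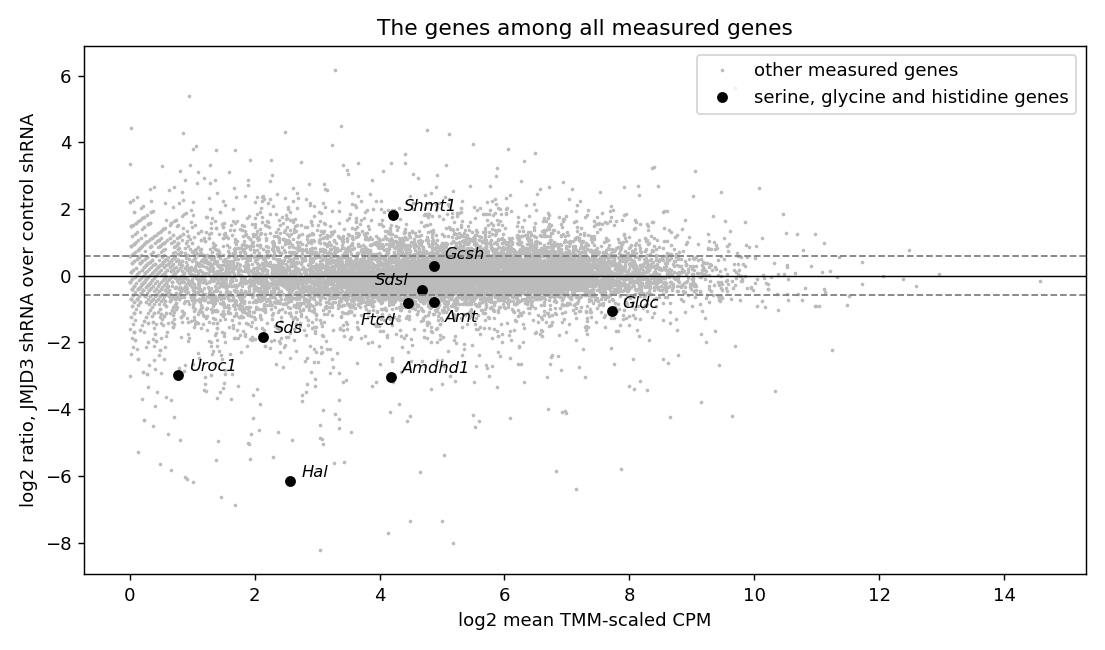
Log2 ratio of JMJD3 shRNA over control shRNA against log2 mean TMM-scaled CPM for the measured genes with counts in both libraries (grey) and the 10 serine, glycine and histidine genes (black, labelled). Shmt1 lies above the dashed 1.5-fold line, Gcsh and Sdsl lie between the dashed lines, and Hal is near the lower edge of the cloud.

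Levels were compared between genes as TPM, in which counts are divided by exon length before scaling to a common total. On this scale Gldc was the most abundant of the 10 genes in both libraries, at 90.8 under JMJD3 shRNA and 177 under control shRNA. Gcsh came next under JMJD3 shRNA, at 60.3, where Amt came next under control shRNA, at 64.8. Gldc exceeded Gcsh by a factor of 1.51 in TPM under JMJD3 shRNA and of 3.87 under control shRNA. The 3 glycine cleavage genes held 65.0% of the summed TPM of the 10 genes under JMJD3 shRNA and 66.2% under control shRNA. Their combined share hardly differed, but their sum was 192 TPM under JMJD3 shRNA and 287 TPM under control shRNA. Gldc held 30.8% of the 10-gene sum under JMJD3 shRNA and 40.7% under control shRNA, and Gcsh 20.4% and 10.5%. The share of the 4 histidine genes was 6.49% under JMJD3 shRNA and 15.5% under control shRNA, and that of Shmt1 was 11.9% and 2.11% in the same order. The 10 genes together summed to 295 TPM under JMJD3 shRNA and 433 under control shRNA.

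Within the histidine pathway the order of levels per length differed between the libraries. Under JMJD3 shRNA Ftcd was highest at 14.6 TPM, followed by Amdhd1 at 4.12, Uroc1 at 0.289 and Hal at 0.151. Under control shRNA Amdhd1 was highest at 31.1, followed by Ftcd at 24.01, Hal at 9.92 and Uroc1 at 2.10. Hal and Uroc1 under JMJD3 shRNA rest on 3 and 7 counts and could not be ordered at this depth. The ratio of Amdhd1 to Uroc1 in TPM was 14.3 under JMJD3 shRNA and 14.8 under control shRNA, while that of Ftcd to Hal was 96.7 and 2.42. For serine, Sdsl exceeded Sds by a factor of 10.8 under JMJD3 shRNA and of 4.13 under control shRNA on this scale.

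**Figure D4:**
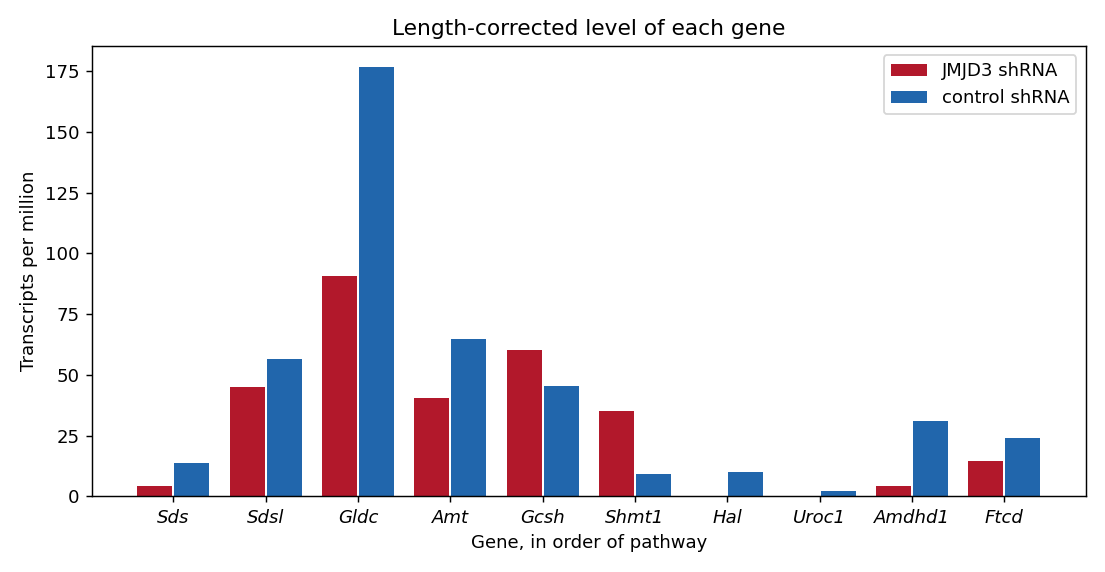
TPM of the 10 genes in the JMJD3 shRNA library (red, left of each pair) and the control library (blue), 1 library each and without error bars. Gldc is the tallest bar in both libraries, at 90.8 and 177, and the bars of Hal and Uroc1 under JMJD3 shRNA, at 0.151 and 0.289, are too short to see.

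Genes that surround the 10 enzymes in metabolism are given by their log2 ratios, and in the serine synthesis, folate and other histidine lists most measured members did not pass the rule of size. These counts stand beside 12.8% lower and 15.3% higher over all measured genes. All 3 enzymes of serine synthesis were measured: Psat1, the aminotransferase, was higher at 0.60 (0.51 to 0.70), while the dehydrogenase Phgdh at 0.34 and the phosphatase Psph at -0.04 did not pass. Of 19 measured folate genes 3 were lower and 4 higher, and the median log2 ratio was 0.32. The higher ones were Mthfd2, the mitochondrial methylene-folate dehydrogenase, at 1.01 (0.82 to 1.21), the folate carrier Slc19a1 at 0.91, the purine enzyme Atic at 0.76 and Shmt2. The lower ones were Mthfs, which recycles formyl-folate, at -0.84 on 44 counts under JMJD3 shRNA and 49 under control shRNA, the formyl-folate dehydrogenase Aldh1l1 at -0.62 and the folate carrier Slc46a1 at -0.62. Mthfd1, the cytosolic trifunctional enzyme, was at -0.54 and did not pass.

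Of 17 measured genes for other steps of glycine and serine metabolism, 8 were lower and 1 was higher, with a median of -0.57. Cbs, which joins serine to homocysteine, had 58.9 CPM under JMJD3 shRNA and 519 CPM under control shRNA, a log2 ratio of -3.14 (-3.24 to -3.05). Gcat, which makes glycine from a threonine product, was at -1.42 (-1.99 to -0.87), and Glyctk, the glycerate kinase, at -1.33 (-1.54 to -1.13). Hao1, the glycolate oxidase, was the higher one at 1.22 (0.51 to 1.99), on 79 counts under JMJD3 shRNA and 21 under control shRNA. Cth, which follows Cbs, was at 0.33 and Glyat, the glycine acyltransferase, at 0.33, and neither passed. Of 6 measured genes for other uses of histidine, only Hdc was lower, the decarboxylase that makes histamine, at -2.63 (-3.64 to -1.73) on 13 counts under JMJD3 shRNA and 50 under control shRNA, measured only through its level in the control library. The histidyl-tRNA synthetases Hars at -0.03 and Hars2 at -0.17 and the dipeptidase Cndp2 at 0.22 did not pass.

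Other routes of amino acid breakdown had median log2 ratios on both sides of the -0.95 of the 10 genes. Phenylalanine and tyrosine breakdown had 4 of 7 genes lower, none higher and a median log2 ratio of -2.10, and the urea cycle had 5 of 6 lower, none higher and a median of -1.30. Arg1, 1 of the 5, was at 0.884 CPM under JMJD3 shRNA and was measured only through its level in the control library. The urea cycle list shares Cps1 and Ass1 with the hepatocyte markers. Over all measured genes 12.8% were lower and 15.3% were higher. Branched-chain amino acid breakdown had 4 of 17 lower, none higher and a median of -0.44, with its lowest gene at -0.84. No difference between these lists and the 10 genes was tested. The 10 genes ran from -6.15 to 1.83, and none of the 3 other routes held a gene that was higher.

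**Figure D5:**
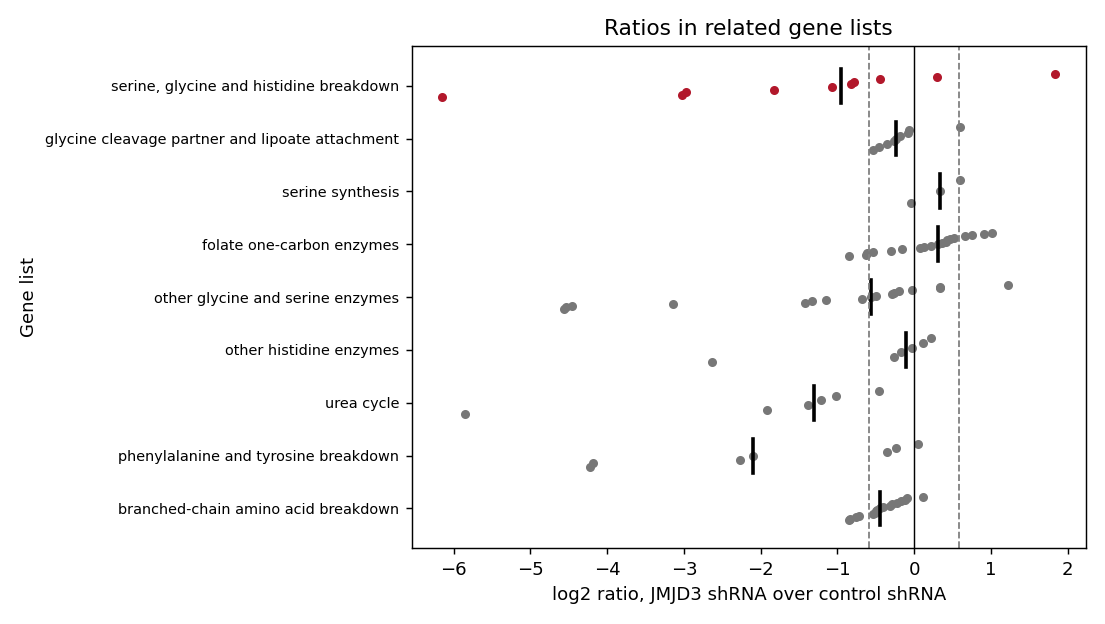
Log2 ratio of JMJD3 shRNA over control shRNA for each measured gene of the 10 serine, glycine and histidine genes (red) and of related lists (grey), with the median of each list as a black bar and dashed lines at 1.5-fold. The 10 genes run from -6.15 to 1.83, and the branched-chain list lies between -0.84 and 0.11.

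All 10 genes are in the authors' deposited table of the comparison, with log2 fold changes of the same sign as the ratios above. That comparison used the same 2 libraries, so it is not independent of these ratios. The authors' deposited table gives Hal -6.08, Uroc1 -2.94, Amdhd1 -3.02 and Ftcd -0.83. The authors' deposited table gives Shmt1 a log2 fold change of 1.83 and Gcsh one of 0.29.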

How the data were processed

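RNA from 2 libraries, 1 per group, was sequenced as 100 bp paired reads, per the labels. Per the file headers, featureCounts 1.4.6-p4 gave the deposited counts, as whole reads over the exons of each UCSC mm9 gene without regard to strand. STAR 2.5.3a, edgeR, Trimmomatic 0.36, bcl2fastq 2.17.1.14 and FastQC 0.11.5 are named in the submitters' processing notes. The header shows no option for read pairs, so both reads of a pair may be counted and intervals may be too narrow. The exon length per gene, also deposited, was used for TPM. The authors' deposited table holds log2 fold changes and log2 CPM, from which fold changes are quoted, and p-values whose test is not stated and which are not used; its sign was that of the JMJD3 shRNA over control shRNA ratio in 12600 of 12600 genes compared. Protein sequences were not used here.

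Counts were scaled by TMM in edgeR 4.0.16 (R 4.3.3) over all genes. Log2 ratios have no pseudocount and carry an exact conditional binomial (Clopper-Pearson) 95% interval, and levels in the plot of counts a Poisson one. Such intervals cover counting error only. The calculation was tested on simulated data. Other scaling factors, filters and thresholds, halved counts and removal of the exon-length trend were tried as alternatives. Transcripts were compared with GENCODE M21 by blastn 2.17.0 for copies with at least 90% identity over at least 200 bp, a length set after repeats matched at shorter ones. Any measured gene of the lists could be named, and neighbouring or overlapping genes were named after their values were seen. The 10 genes and the lists were chosen with earlier results of these data known.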

Additional observations from a re-analysis of the deposited data

How the results depend on the processing

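No paired analysis was possible because each group had 1 library, and no library could be left out. Under DESeq2 size factors, library totals alone, upper-quartile factors, halved counts and removal of the exon-length trend, 7 of the 10 genes were lower and 1 was higher each time, with no gene changing its call. The other scaling factors shift every log2 ratio alike, by 0.013 (DESeq2), -0.036 (library totals) or -0.049 (upper quartile). None of the 10 genes lay that close to the 1.5-fold threshold (0.585 in log2), so these settings could not change a call among them. Some genes of the other lists did lie that close. Lipt1 at 0.593, Krt19 at 0.595, Sox9 at 0.592 and Psat1 at 0.604 would not pass with library totals or upper-quartile factors. Hnf4a at -0.572 would then count as lower. The number lower was 5 with a threshold of 2-fold, which leaves out Amt and Ftcd, and 5 with a mean of at least 5 CPM, which leaves Sds and Uroc1 unmeasured. The median log2 ratio lay between -0.997 and -0.805 over all settings, including the authors' deposited table at -0.95. Removing the length trend moved Sdsl to -0.21 and Gldc to -1.17, and Amt, at -0.587, then passed 1.5-fold only narrowly. With Hal at 3 counts and Uroc1 at 7 in the JMJD3 shRNA library, depth limits how far below control either can be placed.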

Other observations

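Values of 7 genes with known roles around choline, betaine, sarcosine and glycine are given here, picked from the list of other glycine and serine genes after their values were seen, so they describe these genes only. Of the 7, 5 were lower and 2 (Sardh and Aldh7a1) did not pass the rule of size, where 12.8% of all measured genes were lower, and nothing is read from that share because of how the genes were picked. Bhmt at 0.718 CPM and Gnmt at 0.828 CPM under JMJD3 shRNA were measured only through their level in the control library. Chdh, choline dehydrogenase, had 18.2 CPM under JMJD3 shRNA and 40.4 CPM under control shRNA, a log2 ratio of -1.15 (-1.36 to -0.94). Bhmt, which uses betaine to methylate homocysteine, had 13 counts under JMJD3 shRNA and 178 under control shRNA, a log2 ratio of -4.46 (-5.40 to -3.65). Dmgdh, dimethylglycine dehydrogenase, had 3.81 CPM under JMJD3 shRNA and 88.2 CPM under control shRNA, at -4.53 (-4.91 to -4.18). Sardh, which makes glycine from sarcosine, stood at 32.9 CPM under JMJD3 shRNA and 33.6 CPM under control shRNA, with a log2 ratio of -0.03 (-0.22 to 0.16). Gnmt, which runs between glycine and sarcosine, had 15 counts under JMJD3 shRNA and 221 under control shRNA, at -4.57 (-5.43 to -3.82). Pipox, a peroxisomal sarcosine oxidase, was at -0.68 (-0.79 to -0.57), and Aldh7a1, which makes betaine, at -0.27 did not pass the rule of size.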
